A study of Homo sapiens with 8 samples.

Results

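The sterol and fatty acid synthesis genes described here are 32 genes taken by name from the gene-level RNA-seq table, among 60282 genes listed. They comprise 7 enzymes of the mevalonate pathway, 3 enzymes from squalene to lanosterol, 9 genes of the steps from lanosterol to cholesterol, 5 regulators of the pathway and 8 enzymes of fatty acid synthesis. All 32 were found and all 32 passed the filter on low counts, which left 14073 genes for testing. The cells were SK-UT-1, a long-established human line grown from a leiomyosarcoma, a malignant smooth muscle tumour, of the uterus. Vehicle cells received DMSO (n = 4) and treated cells received TP-472, an inhibitor of the bromodomain proteins BRD9 and BRD7, at 5 µM for 48 h (n = 4). Both groups grew in the same medium with fetal bovine serum, which itself supplies cholesterol and fatty acids. The comparison asks how inhibition of BRD9/7 changed the transcriptome of these cells. The model is 1 cell line at 1 dose and 1 time, and the p-values measure the spread between these samples. The study's methods describe its experiments in general as using biological replicates, and the labels do not say how the 4 of each group were kept apart.

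Cells make cholesterol from acetyl-CoA through the mevalonate pathway, squalene and lanosterol, and they make fatty acids from the same acetyl-CoA through malonyl-CoA. The transcription factors SREBP-1 and SREBP-2, encoded by SREBF1 and SREBF2, are held in the endoplasmic reticulum membrane by SCAP and INSIG proteins while sterols are plentiful. When sterols run low they move to the Golgi, are cut by proteases and enter the nucleus, where SREBP-2 mainly drives sterol genes and SREBP-1c mainly fatty acid genes.

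The total count per library was between 32574672 and 38545464. One library stood apart from its group. Vehicle replicate 3 had a median Spearman correlation of 0.914 with the other vehicle libraries over the genes tested, against 0.988 to 0.989 for vehicle replicates 1, 2 and 4 and 0.993 to 0.997 for the TP-472 libraries. Its mean GC content, weighted by counts, was 52.3%, compared with 49.7% to 50.2% in the other vehicle libraries and 49.3% to 50.7% in the TP-472 libraries. Among the 32 genes, vehicle replicate 3 was the highest vehicle library for 15 genes and the lowest for another 15. The genes in which it exceeded the mean of the other vehicle libraries (17 genes) had a median exon GC content of 57.4%, and the genes in which it fell below that mean (15 genes) a median of 42.7%. Across the 32 genes the log2 ratio of vehicle replicate 3 to the other vehicle libraries had a Pearson r of 0.843 and a Spearman rho of 0.876 with GC content. These genes share the same libraries, and over all 13970 tested genes with a GC value r was 0.749. The median coefficient of variation of the 32 genes was 20.8% in the vehicle group, 9.28% without vehicle replicate 3 and 6.49% in the TP-472 group. The log2 fold change of each of the 32 genes, and of each gene named from the further lists, is therefore also given without it.

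**Figure D1:**
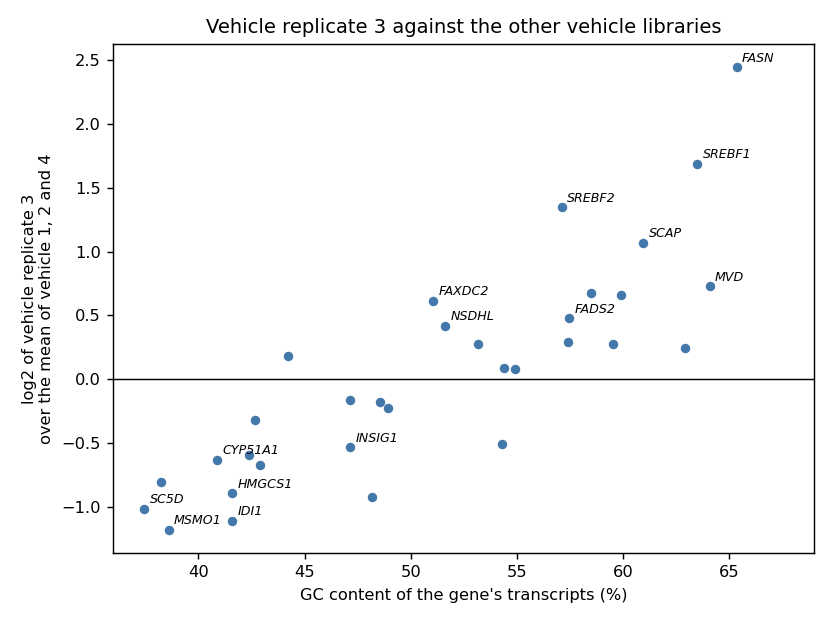
The x axis is the exon GC content of each of the 32 genes in percent, and the y axis is the log2 ratio of the level in vehicle replicate 3 to the mean of vehicle replicates 1, 2 and 4, with a line at 0 for no difference. GC-rich genes such as FASN (GC content 65.3%, ratio 5.45) lie at the upper right and GC-poor genes such as MSMO1 (GC content 38.6%, ratio 0.441) at the lower left.

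Upon TP-472 treatment the sterol and fatty acid genes did not move in 1 direction. The transcripts of both SREBP factors decreased, FAXDC2 decreased more than any other of the 32, LSS and FADS2 decreased, and CYP51A1 increased. A gene was called when its Benjamini-Hochberg adjusted p over all genes tested was below 0.05 in edgeR's quasi-likelihood test and its fold change exceeded 1.5. By this rule 1 of the 32 genes was higher (CYP51A1), 5 were lower (FAXDC2, SREBF1, SREBF2, FADS2 and LSS) and 26 were not called, whereas 12.0% of all genes tested were called higher and 14.9% lower. With the adjusted p alone, 3 of the 32 were higher (CYP51A1, NSDHL and DHCR7) and 9 were lower (LSS, FAXDC2, INSIG1, SREBF1, SREBF2, ACACA, SCD, FADS1 and FADS2), beside 17.2% higher and 19.1% lower among all genes. The 4 TP-472 libraries all lay above the 4 vehicle libraries for 11 of the 32 genes and all below them for 9, and the groups overlapped for 12. An exact two-sided permutation test over the 70 assignments of 8 libraries to 2 groups of 4 allows no p below 0.0286. Full separation always gives that p, so its value for these 11 and 9 genes adds nothing to the counts. Among all genes 23.8% were fully above and 21.6% fully below. The median log2 fold change of the 32 genes was −0.0084, and that of all genes −0.026.

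Without vehicle replicate 3, 1 of the 32 genes was called higher (NSDHL) and 5 were called lower (FAXDC2, INSIG1, SREBF1, SREBF2 and FADS2), with 12.4% of all genes called higher and 13.5% lower. CYP51A1 and LSS kept an adjusted p below 0.05 and fell under the fold limit, while NSDHL and INSIG1 passed it. By the adjusted p alone, 10 of the 32 genes were then higher (HMGCS1, IDI1, SQLE, CYP51A1, MSMO1, NSDHL, EBP, SC5D, DHCR7 and ELOVL6), 11 were lower (FDFT1, LSS, FAXDC2, INSIG1, SREBF1, SREBF2, ACLY, ACACA, SCD, FADS1 and FADS2) and 11 were neither. In that fit 28.6% of all genes were higher and 28.5% lower. The 10 higher genes include 9 sterol enzymes and 1 fatty acid elongase, and the 11 lower genes include 3 regulators, 3 sterol genes and 5 fatty acid enzymes.

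**Figure D2:**
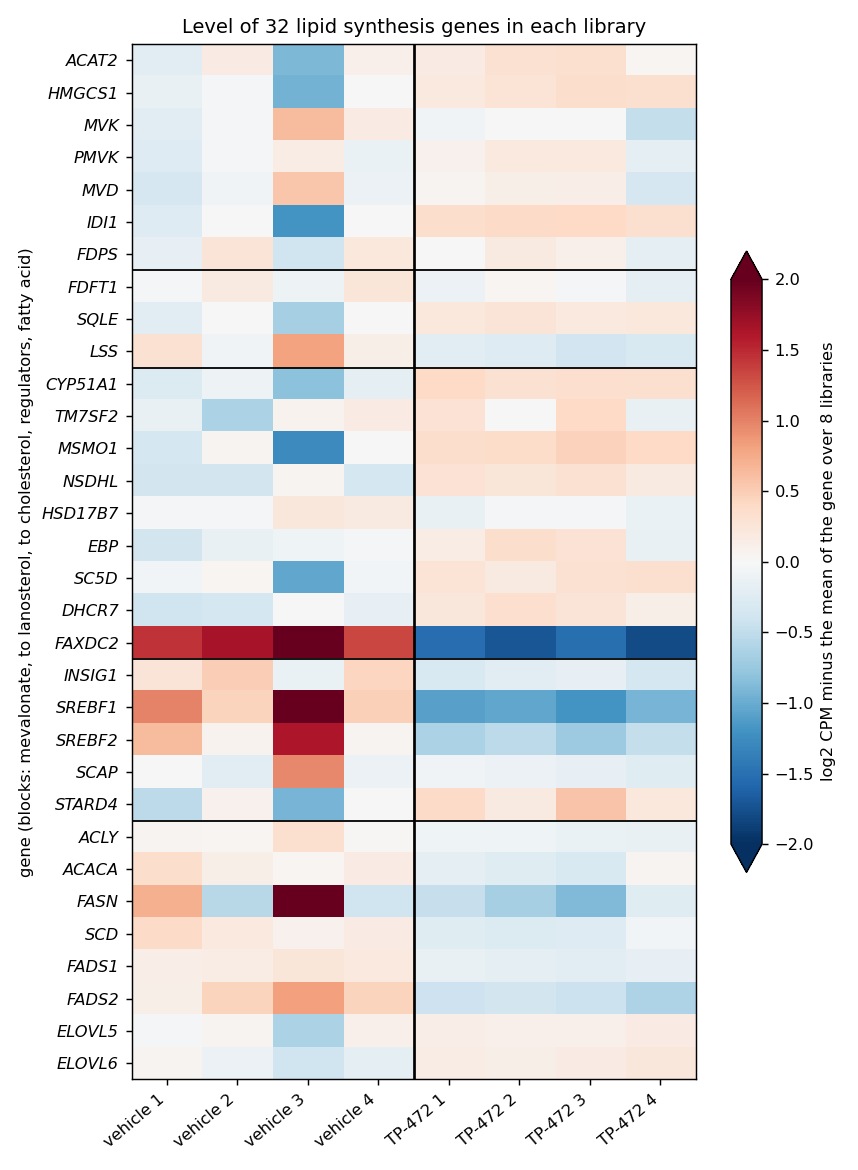
Heat map of the 32 genes (rows, by group) in the 8 libraries (columns), coloured by log2 CPM minus the mean of that gene over all 8 libraries, with colours saturating at ±2. Vehicle replicate 3 differs in colour from the other vehicle libraries in most rows, and the TP-472 libraries resemble each other.

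**Figure D3:**
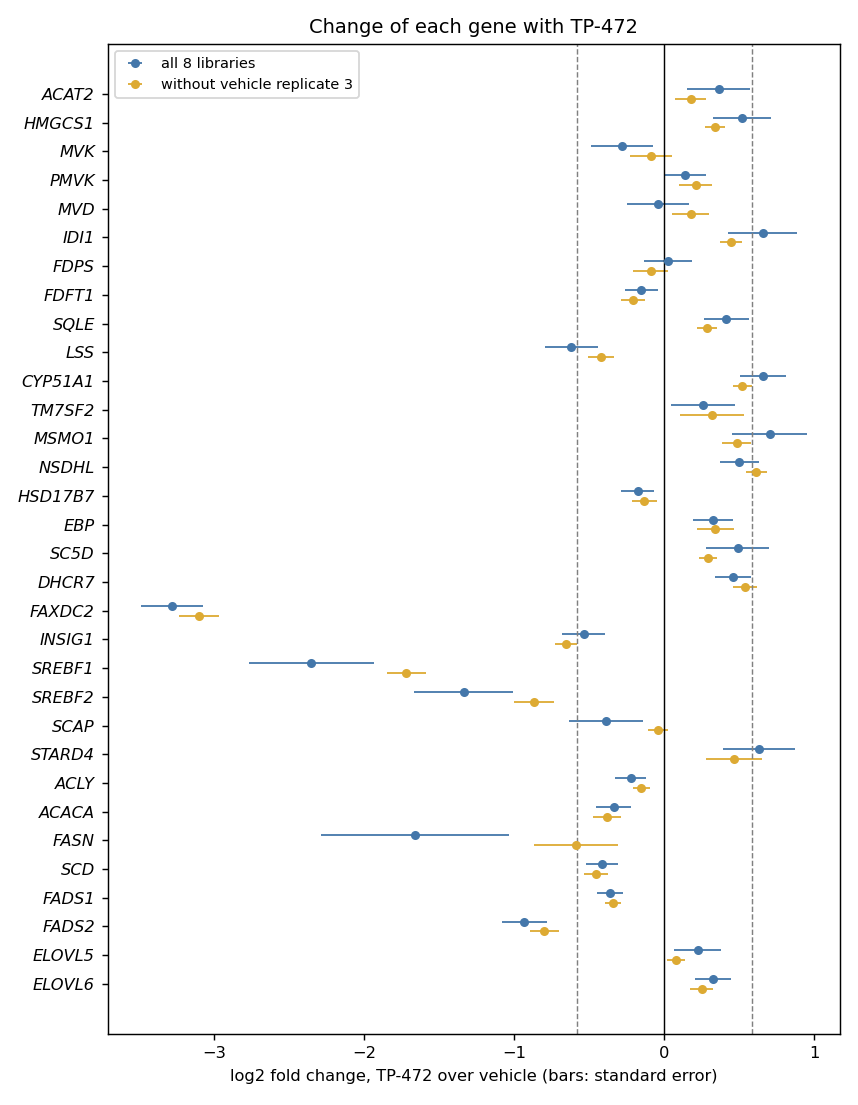
Log2 fold change of TP-472 over vehicle for each of the 32 genes with its standard error, from all 8 libraries and from the 7 libraries without vehicle replicate 3. FAXDC2 (−3.28) and SREBF1 (−2.35) lie farthest to the left, and the point of FASN moves from −1.66 to −0.59 without vehicle replicate 3.

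Among the regulators, the SREBP transcripts decreased. Levels are given in CPM, the count of a gene scaled to the library total after correction by trimmed mean of M-values (TMM) factors. SREBF1 (ENSG00000072310.17, chr17:17810399-17837002, GRCh38) encodes SREBP-1a and SREBP-1c, which a gene-level count does not separate. Its level was 77.1, 53.1, 198 and 54.0 CPM in vehicle replicates 1 to 4 and 18.3, 18.9, 17.01 and 20.5 CPM in TP-472 replicates 1 to 4. The 2 groups were fully separate, with the TP-472 values lower, and vehicle replicate 3 was by far the highest. The decrease was 5.11-fold (log2 fold change −2.35, SE 0.42, adjusted p = 0.00328), and without vehicle replicate 3 the log2 fold change was −1.72 (SE 0.13, adjusted p = 8.09e-06). SREBF2 (ENSG00000198911.12, chr22:41833079-41907308), which encodes SREBP-2, had 76.5, 52.0, 153 and 51.6 CPM in the vehicle libraries and 31.9, 34.4, 29.9 and 35.5 CPM in the TP-472 libraries. Again the groups did not overlap and vehicle replicate 3 was the highest. The log2 fold change of SREBF2 was −1.34 (SE 0.33, adjusted p = 0.0143) and −0.87 (SE 0.14, adjusted p = 5.14e-04) without vehicle replicate 3.

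INSIG1 encodes an endoplasmic reticulum protein that retains SCAP when sterols are plentiful, and it is itself a known SREBP target. Its level was 64.7, 75.6, 48.9 and 72.4 CPM in the vehicle libraries and 43.8, 46.1, 48.1 and 42.2 CPM in the TP-472 libraries. All TP-472 libraries were lower than all vehicle libraries, although vehicle replicate 3 nearly met them. INSIG1 passed the adjusted p but not the fold limit (log2 fold change −0.54, SE 0.14, adjusted p = 0.0189), and it was called lower without vehicle replicate 3 (log2 fold change −0.66, adjusted p = 6.83e-05). SCAP, the escort protein of the SREBPs, measured 47.2 to 106 CPM in the vehicle libraries and 45.9 to 51.7 CPM in the TP-472 libraries, where the highest vehicle value is that of vehicle replicate 3. Its log2 fold change of −0.39 (adjusted p = 0.240) became −0.041 (SE 0.069) without that library. STARD4, which carries cholesterol between membranes, was low, with 1.88, 2.87, 1.42 and 2.70 CPM in the vehicle libraries and 3.52, 3.07, 4.02 and 3.12 CPM in the TP-472 libraries. The groups did not overlap, and the difference missed the threshold (log2 fold change 0.63, SE 0.24, adjusted p = 0.0682), passing it when vehicle replicate 2 was left out (log2 fold change 0.78, adjusted p = 0.0429) and not when vehicle replicate 3 was (0.46, adjusted p = 0.0551). The summed level of the 5 regulators was 310.8 ± 132.5 CPM in vehicle and 149.2 ± 2.32 CPM in TP-472 (SD, n = 4 each), and 245 ± 25.1 CPM in vehicle without vehicle replicate 3 (n = 3).

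**Figure D4:**
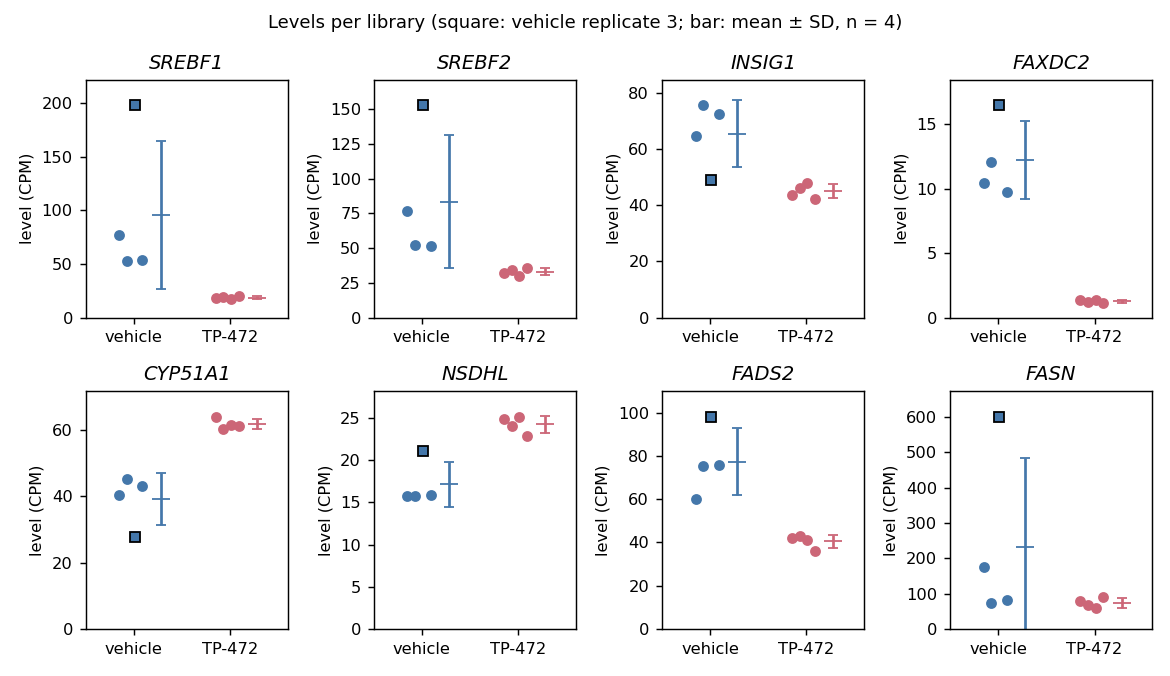
Level in CPM of 8 of the genes in each library, with circles for libraries, a square for vehicle replicate 3, and bars for the mean and SD (n = 4 each), each panel with its own axis from 0, so that an SD reaching below 0 is cut there. The TP-472 points of SREBF1 (17.01 to 20.5 CPM), SREBF2 (29.9 to 35.5 CPM) and FAXDC2 (1.11 to 1.36 CPM) lie below all vehicle points, and the square is the highest vehicle point in these 3 panels.

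SREBPs bind sterol regulatory elements, often beside CCAAT boxes bound by NF-Y, so a stretch upstream of 5 of the genes is shown, 3 regulators whose transcripts were lower and 2 sterol enzymes whose TP-472 libraries all lay above the vehicle libraries. The sequences are from RefSeq (GRCh38.p14), run 5′ to 3′ on the strand of the gene and end just before the most upstream coding-gene exon that GENCODE 29 places in the window. That exon can begin before the RefSeq start, and counted from the RefSeq start the last base shown lies at −27 (SREBF2), −17 (SREBF1), −103 (INSIG1), −97 (NSDHL) and −47 (MSMO1). Capitals mark TCACNCCAC (a sterol regulatory element) and CCAAT, each on either strand, and CCAAT read on the other strand is ATTGG.
SREBF2 (chr22:41832969-41833078, plus strand): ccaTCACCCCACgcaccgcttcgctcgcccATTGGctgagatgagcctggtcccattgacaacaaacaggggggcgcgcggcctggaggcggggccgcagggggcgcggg
SREBF1 (chr17:17837003-17837112, minus strand): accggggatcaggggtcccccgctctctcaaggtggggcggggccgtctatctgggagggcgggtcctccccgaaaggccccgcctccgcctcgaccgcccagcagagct
INSIG1 (chr7:155297666-155297775, plus strand): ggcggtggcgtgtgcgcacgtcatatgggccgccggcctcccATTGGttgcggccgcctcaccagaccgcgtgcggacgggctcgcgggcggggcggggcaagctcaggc
NSDHL (chrX:152830857-152830966, plus strand): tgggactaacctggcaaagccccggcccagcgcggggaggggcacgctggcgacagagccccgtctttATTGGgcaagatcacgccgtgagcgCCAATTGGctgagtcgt
MSMO1 (chr4:165327513-165327622, plus strand): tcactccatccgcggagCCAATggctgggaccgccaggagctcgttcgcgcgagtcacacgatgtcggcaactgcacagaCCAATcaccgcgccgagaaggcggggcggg
The SREBF2 stretch holds 1 sterol element and 1 CCAAT box, the SREBF1 stretch neither, the INSIG1 stretch 1 CCAAT box, the NSDHL stretch 3 (of which 2 overlap) and the MSMO1 stretch 2. SREBF1 had 1 window, at the outermost start of the gene. Starts farther into SREBF1, which encodes 2 forms of SREBP-1, were not searched. In the full windows of 250 bases before to 50 bases after the RefSeq start, 28 of the 32 genes had an entry, in 37 windows. TCACNCCAC occurred in 1 of these 37 windows (2.70%), that of SREBF2, and in 1.13% of all 35116 windows. CCAAT occurred in 25 of 37 (67.6%, against 34.6% of all windows), and the GC box GGGCGG, searched on both strands, in 31 of 37 (83.8%, against 45.0%). A match to these letters is a description of the sequence and not evidence of binding. Genes with several windows, such as IDI1 and ACACA with 3 each, count more than once, and windows of 1 gene can overlap. The windows of all genes were not limited to genes expressed here, and the shares were not compared by a test.

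The 7 mevalonate pathway genes gave no call, where 12.0% of all genes were called higher and 14.9% lower. The largest differences were towards higher levels. IDI1, isopentenyl diphosphate isomerase, had 39.3, 47.3, 20.6 and 46.8 CPM in the vehicle libraries and 59.8, 61.6, 62.4 and 58.8 CPM in the TP-472 libraries. The TP-472 libraries were all above the vehicle libraries, and vehicle replicate 3 was the lowest. The log2 fold change was 0.66 (SE 0.23) with an adjusted p of 0.0525, just outside the threshold. Leaving out vehicle replicate 2 or 4 gave a call (adjusted p = 0.0419 and 0.0468), and leaving out vehicle replicate 3 gave 0.45 with an adjusted p of 7.71e-04, below the fold limit. HMGCS1, the synthase that makes HMG-CoA, measured 26.6 to 51.2 CPM in the vehicle libraries and 58.6 to 65.8 CPM in the TP-472 libraries, without overlap (log2 fold change 0.52, SE 0.19, adjusted p = 0.0636). Without vehicle replicate 3 it passed the adjusted p (0.34, adjusted p = 0.00174). ACAT2, which joins acetyl-CoA units, measured 47.8 to 100.2 CPM in the vehicle libraries and 91.7 to 111 CPM in the TP-472 libraries (log2 fold change 0.36, SE 0.21), and its log2 fold change was 0.18 (SE 0.10) when vehicle replicate 3 was left out.

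The remaining mevalonate genes had smaller differences, and their groups overlapped. PMVK, phosphomevalonate kinase, measured 10.9 to 14.3 CPM in the vehicle libraries and 11.3 to 14.8 CPM in the TP-472 libraries (log2 fold change 0.14, SE 0.14). MVK, mevalonate kinase, measured 8.92 to 16.2 CPM in the vehicle libraries and 7.50 to 10.5 CPM in the TP-472 libraries (log2 fold change −0.28, SE 0.21). For MVD, the decarboxylase of the pathway, the range was 13.9 to 25.8 CPM in the vehicle libraries and 13.9 to 19.2 CPM in the TP-472 libraries (log2 fold change −0.040, SE 0.21). FDPS, farnesyl diphosphate synthase, measured 80.3 to 126 CPM in the vehicle libraries and 92.4 to 119 CPM in the TP-472 libraries (log2 fold change 0.023, SE 0.16). The sign of MVD and of FDPS depended on whether vehicle replicate 3 was included (0.18 and −0.091 without it), whereas PMVK (0.21 without it) and MVK (−0.090) kept theirs. The summed level of the 7 genes was 310.5 ± 61.7 CPM in vehicle (337 ± 39.6 without vehicle replicate 3) and 374.8 ± 27.9 CPM in TP-472.

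Between squalene and lanosterol, 1 of the 3 enzymes was called, LSS, which was lower, as were 14.9% of all genes. LSS, lanosterol synthase, which closes the sterol rings, had 46.9, 36.3, 66.3 and 41.2 CPM in the vehicle libraries and 32.3, 31.7, 29.2 and 30.9 CPM in the TP-472 libraries. The TP-472 values were lower without overlap, and vehicle replicate 3 was the highest. The call of LSS (log2 fold change −0.62, SE 0.18, adjusted p = 0.0261) was close to both limits. Leaving out any 1 of the 8 libraries except vehicle replicates 2 and 4 ended the call, and without vehicle replicate 3 the log2 fold change was −0.42 (adjusted p = 0.00272), which is under the fold limit. SQLE, squalene epoxidase, measured 28.5 to 45.5 CPM in the vehicle libraries and 51.4 to 53.8 CPM in the TP-472 libraries, so that the groups did not overlap (log2 fold change 0.41, SE 0.15, adjusted p = 0.0560). Its log2 fold change without vehicle replicate 3 was 0.28 (adjusted p = 0.00590). FDFT1, squalene synthase, overlapped between groups at 87.5 to 110.2 CPM in the vehicle libraries and 82.5 to 96.3 CPM in the TP-472 libraries (log2 fold change −0.15, SE 0.11, adjusted p = 0.296) and reached −0.21 (adjusted p = 0.0487) without vehicle replicate 3.

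In the steps from lanosterol to cholesterol, 1 gene was called higher, 1 was called lower and 7 were not called. These counts are close to the 12.0% called higher and 14.9% called lower among all genes. CYP51A1, lanosterol demethylase (ENSG00000001630.17, chr7:92112151-92134803), had 40.5, 45.3, 27.7 and 43.0 CPM in the vehicle libraries and 64.0, 60.3, 61.4 and 61.1 CPM in the TP-472 libraries. The TP-472 libraries were closely grouped above all vehicle libraries, and vehicle replicate 3 was the lowest. CYP51A1 was 1.58-fold higher (log2 fold change 0.66, SE 0.15, adjusted p = 0.0106). Without vehicle replicate 3 the log2 fold change was 0.52 (SE 0.061, adjusted p = 8.89e-05), under the fold limit.

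NSDHL and DHCR7 passed the adjusted p and stayed under the fold limit. NSDHL, the sterol dehydrogenase that acts with MSMO1 in removing methyl groups from lanosterol, had 15.7, 15.8, 21.1 and 15.9 CPM in the vehicle libraries and 24.9, 24.0, 25.2 and 22.9 CPM in the TP-472 libraries. Vehicle replicate 3 was the vehicle library nearest to the TP-472 libraries here. Its log2 fold change of 0.50 (SE 0.13, adjusted p = 0.0167) became 0.61 (adjusted p = 6.63e-05) without vehicle replicate 3, a call. DHCR7, the reductase that converts 7-dehydrocholesterol to cholesterol, had 28.7, 29.6, 37.6 and 33.9 CPM in the vehicle libraries and 44.5, 47.6, 45.3 and 40.9 CPM in the TP-472 libraries. The groups did not overlap (log2 fold change 0.46, SE 0.12, adjusted p = 0.0167), and leaving out vehicle replicate 3 gave 0.54 (adjusted p = 4.04e-04).

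MSMO1, the methylsterol oxidase, had 20.9, 27.8, 11.1 and 26.7 CPM in the vehicle libraries and 34.01, 34.6, 36.8 and 35.3 CPM in the TP-472 libraries. All TP-472 libraries were above all vehicle libraries, and vehicle replicate 3 was below the rest. The difference missed the threshold (log2 fold change 0.70, SE 0.25, adjusted p = 0.0549). It passed when vehicle replicate 2 or 4 was left out (adjusted p = 0.0366 and 0.0480), and without vehicle replicate 3 the log2 fold change was 0.48 (adjusted p = 0.00229), under the fold limit. SC5D, a sterol desaturase, measured 23.0 to 48.3 CPM in the vehicle libraries and 53.5 to 58.7 CPM in the TP-472 libraries, without overlap (log2 fold change 0.49, SE 0.21, adjusted p = 0.0990). EBP, the sterol isomerase, measured 32.3 to 40.9 CPM in the vehicle libraries and 37.7 to 53.0 CPM in the TP-472 libraries (log2 fold change 0.32, SE 0.13, adjusted p = 0.0876). TM7SF2, a sterol reductase, was low at 2.04 to 3.54 CPM in the vehicle libraries and 2.85 to 4.16 CPM in the TP-472 libraries (log2 fold change 0.26, SE 0.21). HSD17B7, the 3-ketosteroid reductase of the pathway, measured 16.8 to 20.2 CPM in the vehicle libraries and 15.6 to 16.9 CPM in the TP-472 libraries (log2 fold change −0.18, SE 0.11). The groups of EBP, TM7SF2 and HSD17B7 overlapped. When vehicle replicate 3 was left out, the log2 fold change was 0.29 for SC5D (adjusted p = 0.00252), 0.34 for EBP (adjusted p = 0.0377), 0.32 for TM7SF2 and −0.13 for HSD17B7.

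FAXDC2, a member of the fatty acid hydroxylase superfamily, the family to which MSMO1 and SC5D also belong, changed more than any other of the 32 genes. FAXDC2 (ENSG00000170271.11, chr5:154818491-154859252) had 10.5, 12.1, 16.5 and 9.72 CPM in the vehicle libraries and 1.35, 1.18, 1.36 and 1.11 CPM in the TP-472 libraries. No TP-472 library reached 2 CPM. The decrease was 9.73-fold (log2 fold change −3.28, SE 0.21, adjusted p = 3.86e-05), with −3.11 (SE 0.13) without vehicle replicate 3. Its groups did not overlap, as in 21.6% of all genes in that direction. The summed level of the 9 genes was 221.9 ± 18.5 CPM in vehicle (229 ± 13.4 without vehicle replicate 3) and 290.5 ± 10.2 CPM in TP-472.

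Of the 8 fatty acid synthesis genes, FADS2 was called lower and the other 7 were not called, beside 14.9% of all genes called lower. FADS2, the desaturase that starts the conversion of dietary polyunsaturated fatty acids (ENSG00000134824.14, chr11:61792980-61867354), had 60.2, 75.5, 98.3 and 75.8 CPM in the vehicle libraries and 41.9, 43.2, 41.0 and 36.2 CPM in the TP-472 libraries. The groups were separate, with vehicle replicate 3 the highest. FADS2 was 1.91-fold lower (log2 fold change −0.93, SE 0.15, adjusted p = 0.00219), and the log2 fold change was −0.80 (SE 0.095) without vehicle replicate 3. FADS1, a later desaturase of the same chain, lies within the FADS2 locus on the opposite strand (chr11:61799625-61829318). The sources differ on whether the library kit kept strand, so reads of these genes may not be fully separated. FADS1 had 68.4, 69.3, 74.0 and 71.4 CPM in the vehicle libraries and 56.5, 54.4, 53.9 and 55.6 CPM in the TP-472 libraries. It passed the adjusted p and not the fold limit (log2 fold change −0.36, SE 0.085, adjusted p = 0.0114), with −0.34 without vehicle replicate 3.

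SCD, stearoyl-CoA desaturase, which makes monounsaturated fatty acids, had 249, 217, 203 and 214 CPM in the vehicle libraries and 160.3, 158, 159 and 184 CPM in the TP-472 libraries. All TP-472 libraries were lower, and TP-472 replicate 4 was the nearest to the vehicle libraries (log2 fold change −0.42, SE 0.11, adjusted p = 0.0163). ACACA, the acetyl-CoA carboxylase that makes malonyl-CoA, had 220.0, 187, 177 and 194 CPM in the vehicle libraries and 151, 147, 139.7 and 179 CPM in the TP-472 libraries. TP-472 replicate 4 overlapped with the vehicle range, and the adjusted p lay at the threshold (log2 fold change −0.34, SE 0.12, adjusted p = 0.0497). ACLY, which makes cytosolic acetyl-CoA from citrate, measured 418 to 509.9 CPM in the vehicle libraries and 371 to 388 CPM in the TP-472 libraries, without overlap (log2 fold change −0.22, SE 0.10, adjusted p = 0.118). Leaving out vehicle replicate 3 gave log2 fold changes of −0.46 for SCD (adjusted p = 0.00102), −0.38 for ACACA (adjusted p = 0.00663) and −0.15 for ACLY (adjusted p = 0.0420).

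FASN, fatty acid synthase, had the highest ratio of vehicle replicate 3 to the other vehicle libraries among the 32 genes. It had 176, 73.4, 601 and 81.6 CPM in the vehicle libraries and 77.9, 67.6, 58.0 and 90.9 CPM in the TP-472 libraries. Vehicle replicate 3 held 5.45 times the mean of the other vehicle libraries, and vehicle replicates 2 and 4 lay within the TP-472 range. The log2 fold change of FASN was −1.66 (SE 0.63, adjusted p = 0.0645), and −0.59 (SE 0.28, adjusted p = 0.0991) without vehicle replicate 3. Leaving out vehicle replicate 2 or vehicle replicate 4 instead gave a call (−1.96 and −1.95, adjusted p = 0.0278 and 0.0342). The elongases had higher values with TP-472 and no call. ELOVL6, which extends palmitate, measured 18.8 to 25.7 CPM in the vehicle libraries and 26.9 to 29.2 CPM in the TP-472 libraries, without overlap (log2 fold change 0.32, SE 0.12, adjusted p = 0.0590). ELOVL5, which extends polyunsaturated fatty acids, measured 124 to 205 CPM in the vehicle libraries and 205 to 215 CPM in the TP-472 libraries, also without overlap by a narrow margin (log2 fold change 0.22, SE 0.16, adjusted p = 0.284). Leaving out vehicle replicate 3, these became 0.25 for ELOVL6 (adjusted p = 0.0181) and 0.079 for ELOVL5 (adjusted p = 0.269). The summed level of the 8 genes was 1442 ± 252 CPM in vehicle (1320.2 ± 82.1 without vehicle replicate 3) and 1105 ± 43.7 CPM in TP-472.

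Per kilobase of exon, which allows levels of different genes to be compared, ACLY was the most abundant of the 32 genes in both groups, at 85.1 CPM per kb in vehicle and 72.8 in TP-472. ELOVL5 (47.0 and 54.8 CPM per kb) and SCD (41.1 and 30.8) followed. In vehicle SREBF1 was at 11.9 CPM per kb and SREBF2 at 11.01, or at 7.65 and 7.94 without vehicle replicate 3, and in TP-472 SREBF1 (2.33) was below SREBF2 (4.36). STARD4 was the least abundant in vehicle (0.390 CPM per kb) and FAXDC2 in TP-472 (0.173).

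Other genes of the pathway were read from 4 further lists, each a small number of genes to be read against the 12.0% called higher and 14.9% called lower among all genes. Of 11 tested genes of SREBP processing and turnover, 3 were called higher and none lower. They included PGRMC1, a heme-binding membrane protein (log2 fold change 0.83, adjusted p = 0.0197, and 0.63 without vehicle replicate 3), and TMEM97, a sterol-binding membrane protein (0.65, adjusted p = 0.00814). Without vehicle replicate 3 TMEM97 (0.53) fell under the fold limit, and INSIG2, the paralogue of INSIG1 (−0.61), and MBTPS2, the site-2 protease that releases SREBPs (−0.62, adjusted p = 0.0332), were called lower. The groups of MBTPS2 overlapped, with TP-472 replicate 4 (33.2 CPM) above vehicle replicates 2 and 4 (30.5 and 30.0 CPM). MBTPS1, the site-1 protease, was lower without overlap and under the fold limit (−0.57, adjusted p = 0.00143, and −0.58 without vehicle replicate 3). Of 16 tested genes of cholesterol uptake, transport and efflux, 2 were higher and 2 lower, close to the shares among all genes. LRP1, a large receptor of lipoprotein remnants, was lower (−2.30, adjusted p = 0.00372), with 85.5, 41.8, 164 and 43.5 CPM in the vehicle libraries and 18.1, 16.5, 15.3 and 17.97 CPM in the TP-472 libraries. CH25H, cholesterol 25-hydroxylase, was higher (1.37, adjusted p = 9.75e-04), as was NCEH1, a neutral cholesterol ester hydrolase (0.82, adjusted p = 0.00248). LPCAT3, a lysophospholipid acyltransferase, was lower (−0.66, adjusted p = 0.0146). With vehicle replicate 3 left out, the log2 fold changes were −1.75 for LRP1, 1.34 for CH25H, 0.70 for NCEH1 and −0.50 for LPCAT3, which kept an adjusted p of 0.00152 and fell under the fold limit.

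Of 15 genes of the isoprenoid branch, which uses farnesyl diphosphate for ubiquinone, dolichol and prenyl groups, 3 were higher and none lower. PDSS1, which makes the side chain of ubiquinone, had a log2 fold change of 0.94 (adjusted p = 0.0124) and 0.74 without vehicle replicate 3. NUS1, a subunit of the dolichol-making cis-prenyltransferase, had 0.61 (adjusted p = 0.0479) and fell under the fold limit without vehicle replicate 3 (0.45, adjusted p = 0.0227). Of 20 tested fatty acid synthesis partners, 5 were higher and 3 lower, beside 12.0% and 14.9% of all genes. ACACB, the mitochondrial acetyl-CoA carboxylase (−1.12, adjusted p = 0.00880), and SLC25A1, the mitochondrial citrate carrier (−0.86, adjusted p = 0.00614), were lower. The elongases ELOVL7 (1.04, adjusted p = 0.0259) and ELOVL1 (0.97, adjusted p = 0.00126) were higher, and all 4 of these kept their calls without vehicle replicate 3 (−0.81, −0.66, 0.84 and 0.87 in the order named). The median log2 fold changes of the 4 lists were −0.016 for SREBP processing, −0.14 for cholesterol uptake, 0.27 for the isoprenoid branch and 0.12 for fatty acid partners. Without vehicle replicate 3 they were 0.031, 0.026, 0.24 and 0.15 in the same order. The medians of SREBP processing and cholesterol uptake thus changed sign. The median over all genes was −0.026, and 0.00094 without that library.

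**Figure D5:**
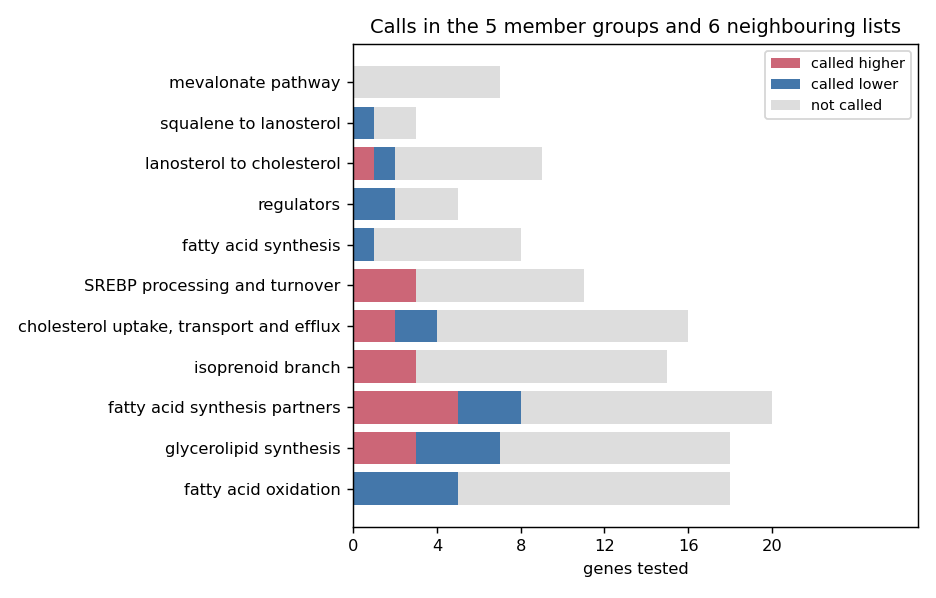
Number of tested genes called higher, called lower and not called with TP-472 in each group of the 32 genes and in each further list, from all 8 libraries. In the isoprenoid branch and in SREBP processing 3 genes each were higher and none was lower, and among fatty acid oxidation genes none was higher and 5 were lower, with 12.0% and 14.9% of all genes called higher and lower.

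The drug targets and cell markers were read in the same libraries. BRD9 had 72.1, 66.1, 115 and 67.8 CPM in the vehicle libraries and 70.7, 70.3, 68.9 and 76.1 CPM in the TP-472 libraries, with no call (log2 fold change −0.16, adjusted p = 0.486, and 0.055 without vehicle replicate 3, which holds the highest value). BRD7 measured 55.6 to 57.0 CPM in the vehicle libraries and 57.5 to 63.9 CPM in the TP-472 libraries (log2 fold change 0.11, adjusted p = 0.324, and 0.11 without that library). TP-472 blocks the bromodomain of these proteins, so their transcripts do not check the treatment. Smooth muscle identity was only partly present. The markers ACTA2 (160.3 ± 16.7 CPM in vehicle, 109 ± 3.52 in TP-472), SMTN (81.5 ± 51.3 and 51.0 ± 4.83, with 56.0 ± 4.59 in vehicle without vehicle replicate 3) and TAGLN (32.3 ± 3.40 and 20.3 ± 1.94) were expressed, DES was low (3.25 ± 0.203 and 0.629 ± 0.169), CNN1 (1.26 ± 0.293 and 1.38 ± 0.362) and LMOD1 (2.53 ± 1.04 and 0.702 ± 0.172) were low too, and MYH11 (at most 0.264 CPM in a library) and ACTG2 (at most 0.132 CPM) were near 0. DES, TAGLN and LMOD1 were called lower, 3 of the 6 markers tested, beside 14.9% of all genes. When vehicle replicate 3 was left out ACTA2 was called lower as well (−0.60, adjusted p = 1.33e-04). This made 4 of 6, beside 13.5% of all genes in that fit. The summed level of the 8 smooth muscle markers was 241, 268, 345 and 271 CPM in the vehicle libraries and 190.0, 193, 179.9 and 172 CPM in the TP-472 libraries. Of the 6 epithelial markers, KRT19 was the most abundant per kilobase of exon in vehicle (3.80 CPM per kb) and KRT18 in TP-472 (4.85 CPM per kb). Of the 4 epithelial markers tested, KRT18 was called higher (7.39 ± 0.871 and 15.6 ± 1.47 CPM). KRT19 (8.88 ± 1.78 and 4.93 ± 1.15 CPM) and MUC1 were called lower, with the same calls without vehicle replicate 3. Among all genes 12.0% were called higher and 14.9% lower, and 12.4% and 13.5% without that library. EPCAM and CDH1 were below 1 CPM throughout. The summed level of the 6 epithelial markers was 20.6, 20.004, 27.7 and 20.4 CPM in vehicle and 25.5, 27.4, 25.7 and 21.3 CPM in TP-472. None of the 6 leukocyte and 5 endothelial markers passed the filter on low counts. CD14 was the most abundant leukocyte marker, below 1 CPM in every library, CD3E was at 0 in all 8 libraries and PTPRC in 7, and the summed endothelial level did not exceed 0.687 CPM in any library. The part of these marker shifts in the results above was not tested, and in bulk RNA fewer cells of a kind cannot be told apart from less RNA per cell.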

How the data were processed

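RNA-seq libraries of 4 vehicle and 4 TP-472 samples were grouped by the treatment label. Per the study's methods and the labels, reads were quantified with Salmon 1.4.0 against the human transcriptome (GRCh38), summed to genes with tximport and GENCODE 34, and checked with STAR. The authors deposited these estimated counts unscaled in 1 table of 60282 genes. The labels name a TruSeq RNA kit and the methods a strand-specific total RNA protocol.

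Estimated counts were rounded to whole numbers. Genes over 1 CPM in at least 4 of 8 libraries were tested in edgeR 4.0.16 (quasi-likelihood F test, TMM scaling, no covariate), with p-values adjusted by Benjamini-Hochberg over all 14073 genes. Libraries held 32574672 to 38545464 counts, so counting error is small except for genes near the filter. The standard error of a log2 fold change is its size divided by the square root of F. DESeq2 1.42.0, limma-voom 3.58.1, other scalings and filters, removal of the GC trend, a replicate block and leaving out each library were the alternatives. The reported edgeR test was also run on simulated counts, and the alternatives were not. It called 98 of 100 genes changed 4-fold, 51 of 100 changed 2-fold and 4 of 13873 unchanged genes. A gene that was not called can thus have changed 2-fold. Libraries of a group differed beyond sampling noise. Positions, exon lengths and GC content are from GENCODE 29 (GRCh38), joined by gene ID, and promoter sequences from RefSeq (GRCh38.p14). Pseudogene copies of FDPS, CYP51A1 and HSD17B7 held at most 0.289% of the count of the gene.

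The members and lists were chosen with earlier results of these data known. All 32 members are named. A member is given with all 8 libraries if it was called, if its adjusted p was below 0.05 or if leaving out 1 library changed its call, and by its range otherwise. From each further list at most the 4 called genes with the largest absolute log2 fold change are named. INSIG2, MBTPS2 and MBTPS1 were added after their values were seen. SPRING1 was not found under that symbol, and 1 called gene of these lists is not reported here.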

Additional observations from a re-analysis of the deposited data

Results flagged for a closer look

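In 8 of the 64 groups of 4 libraries examined (32 genes in 2 groups), 1 library lay far from the other 3 by Dixon's test, which marks about 1 group in 20 by chance. Of these 8, vehicle replicate 3 was the library in 5. It was the lowest vehicle library for HMGCS1 (26.6 CPM) and SC5D (23.0 CPM), and the highest for NSDHL (21.1 CPM), SCAP (106 CPM) and ACLY (509.9 CPM). In the other 3, TP-472 replicate 4 was the lowest TP-472 library for MVK (7.50 CPM) and MVD (13.9 CPM) and the highest for SCD (183.9 CPM).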

How the results depend on the processing

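FAXDC2, SREBF1, SREBF2 and FADS2 were called lower under every alternative run, with log2 fold changes from −3.38 to −3.11, −2.56 to −1.72, −1.51 to −0.87 and −1.04 to −0.70. The call of CYP51A1 was lost on the fold limit without vehicle replicate 3 and with the GC trend removed (0.51), and that of LSS with limma-voom (−0.58), the GC trend removed (−0.33) and the replicate block (adjusted p = 0.0639). The count of the 32 genes called higher was 1 in the reported test, 3 with DESeq2, limma-voom or total-count scaling (IDI1 and MSMO1 added), 2 with over 5 CPM required (IDI1 added), 2 with the GC trend removed (MSMO1 and DHCR7, without CYP51A1) and 1 to 4 when 1 library was left out (4 without vehicle replicate 2, 3 without vehicle replicate 4). By the adjusted p alone it was 3, and 9 were lower. FASN was also called lower without a filter on low counts (−1.63). INSIG1 was called lower with the GC trend removed (−0.61), where FASN was at −0.83 (adjusted p = 0.0907). Among all genes 1693 were called higher and 2096 lower, compared with 2678 higher and 2897 lower in DESeq2, which tested 23471 genes instead of 14073. Leaving out 1 library gave 1336 to 1871 higher and 1408 to 2451 lower.

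The sign reversed for MVK (0.052), MVD (0.41) and SCAP (0.038) with the GC trend removed, and for FDPS with total-count scaling (−0.00079). When 1 library was left out, MVD ranged from −0.15 to 0.18 and FDPS from −0.091 to 0.11. None of these 4 genes was called, and the cause of the reversals was not tested. STARD4 and TM7SF2 had no value when over 5 CPM was required. No pairing by replicate number was seen. The correlations of same-numbered deviations from the group means were −0.059, 0.115, −0.185 and −0.189, and no vehicle library correlated best with its own number. The vehicle mean includes vehicle replicate 3, which stood apart, so a modest pairing could be hidden and was not excluded. With the replicate number as a block, 1 of the 32 genes was called higher and 4 lower, and 1500 and 1555 of all genes. With 4 libraries a group and 1 vehicle library apart, differences near 1.5-fold could not be placed firmly on either side of the limit.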

Other observations

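Glycerolipid synthesis and fatty acid oxidation, which use the products of the pathway, were read in the same test. Of 18 glycerolipid genes 3 were called higher, 4 lower and 11 were not called, with a median log2 fold change of 0.14, where 12.0% of all genes were called higher and 14.9% lower. GPAT3, a glycerol-3-phosphate acyltransferase of the endoplasmic reticulum, had 1.14, 1.58, 0.666 and 1.52 CPM in the vehicle libraries and 5.67, 6.93, 6.83 and 7.66 CPM in the TP-472 libraries (log2 fold change 2.46, SE 0.26, adjusted p = 3.24e-04). Every TP-472 library exceeded every vehicle library. GPAM, the mitochondrial acyltransferase of the same step, was also higher (log2 fold change 1.00, SE 0.15, adjusted p = 0.00159). LPIN3, a phosphatidate phosphatase (−1.02, adjusted p = 0.00517), and AGPAT1, which adds the next acyl chain (−0.85, adjusted p = 0.0138), were lower. Without vehicle replicate 3 the list had 2 genes called higher and 2 lower, beside 12.4% and 13.5% of all genes in that fit. There AGPAT1 (−0.58) fell under the fold limit, while GPAT3 (2.26), GPAM (0.87) and LPIN3 (−0.77) kept their calls.

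Of 18 genes of fatty acid oxidation, none was called higher, 5 were lower and 13 were not called, with a median log2 fold change of −0.10, beside the same 12.0% and 14.9% of all genes. The same counts were found without vehicle replicate 3, beside 12.4% of all genes called higher and 13.5% lower in that fit. ACADS, the short-chain acyl-CoA dehydrogenase, had 9.86, 9.46, 23.4 and 9.30 CPM in the vehicle libraries and 4.68, 5.30, 4.66 and 4.73 CPM in the TP-472 libraries (log2 fold change −1.42, SE 0.31, adjusted p = 0.00817). PDK4, a kinase that restrains pyruvate dehydrogenase (−1.35, adjusted p = 0.00295), CPT1C, a carnitine palmitoyltransferase family member (−1.22, adjusted p = 0.00781), and EHHADH, a peroxisomal bifunctional enzyme (−0.68, adjusted p = 0.0368), were lower. The groups of EHHADH overlapped, with vehicle replicate 3 its lowest vehicle library. Without vehicle replicate 3 the log2 fold changes were −0.98 for ACADS, −1.52 for PDK4, −0.86 for CPT1C and −0.87 for EHHADH.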
